A study of Mus musculus with 24 samples.

Results

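The difference between Tob-KO and WT hippocampus that was shared by all time points was examined across genes, with 12 libraries labelled Tob-KO against 12 WT libraries. The members were chosen by genotype label alone and are all 24 of the 24 libraries of the experiment. Hippocampal RNA came from male mice on a C57BL/6J background, 8 to 12 weeks old, that were labelled Tob knockout (Tob-KO) or wild type (WT). Each genotype had 3 naive mice without fear conditioning and 3 mice each at 15 min, at 1 h and at 3 h after fear conditioning. In this training, mice in a chamber were given a tone that ended together with a foot shock. The Tob-KO line is a constitutive knockout, and the methods describe how it was made only by reference to an earlier publication. It is not the line with floxed exons that served for the hippocampus-restricted deletion. Time point entered the fit as a factor of 4 levels, and no limit was set on the fold change, so that small differences of the same sign at every time point could be seen.

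Tob, listed as Tob1 in the count table, belongs to the Tob/Btg family of antiproliferative proteins, which slow entry into the cell cycle. The protein binds the CCR4-NOT complex, which removes poly(A) tails, and thereby brings deadenylation to chosen mRNAs, and it also binds SMAD proteins of the bone morphogenetic protein pathway. In neurons Tob1 behaves as an early response gene, and the phosphorylation of Tob by ERK kinases is known to alter its activity.

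The deposited counts are whole numbers of reads per gene, and the libraries held 28847989 to 41595972 of them. Levels are given as CPM, counts scaled to library size after TMM normalization, and a log2 fold change is the libraries labelled Tob-KO minus WT on the log2 scale, from edgeR's quasi-likelihood fit. Of 47593 genes listed, 19500 reached 0.2 CPM in at least 2 libraries and were tested. All 8 markers of dentate granule cells, all 7 of CA1 neurons and 7 of 8 of CA2 and CA3 neurons were among them. So were all 8 markers of thalamus, all 10 of striatum and septum and all 18 of the choroid plexus. Passing this low filter therefore does not identify the tissue.

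The targeted gene was measured first. Tob1 (ENSMUSG00000037573.5) lies on chromosome 11 of GRCm38 at 94211454 to 94215495 on the forward strand. It was at 33.9 to 44.5 CPM (median 40.2, n = 12) in WT and at 52.1 to 68.3 CPM (median 57.5, n = 12) in the libraries labelled Tob-KO. The lowest library labelled Tob-KO was therefore above the highest WT library. The log2 fold change was 0.56 (SE, the standard error, 0.037, adjusted p = 1.17e-09, edgeR quasi-likelihood test with Benjamini-Hochberg adjustment), and it was 0.48, 0.61, 0.67 and 0.47 in naive mice, at 15 min, at 1 h and at 3 h. The label of a knockout was thus not matched by a lower count of this gene. A count per gene does not tell which part of the transcript was read, so the directions below are those of the libraries labelled Tob-KO.

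Few genes were called for genotype over all time points, and most of the called differences were small. At a Benjamini-Hochberg FDR of 0.05 in edgeR's quasi-likelihood test, 89 of 19500 genes were called (0.456%), of which 56 were higher (0.287%) and 33 were lower (0.169%) in libraries with the Tob-KO label. At an unadjusted p under 0.05 there were 2595 genes (13.3%). If no gene differed, a share of 0.05 would be expected at this threshold, so a gene not called is not shown to be unchanged. The median fold change of the called genes was 1.12 in either direction. The change was under 1.1-fold for 29 of the called genes, under 1.2-fold for 62 and under 1.5-fold for 80. It reached 2-fold for 5 genes. For comparison, the time factor of the same fit called 1614 genes (8.28%).

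**Figure D1:**
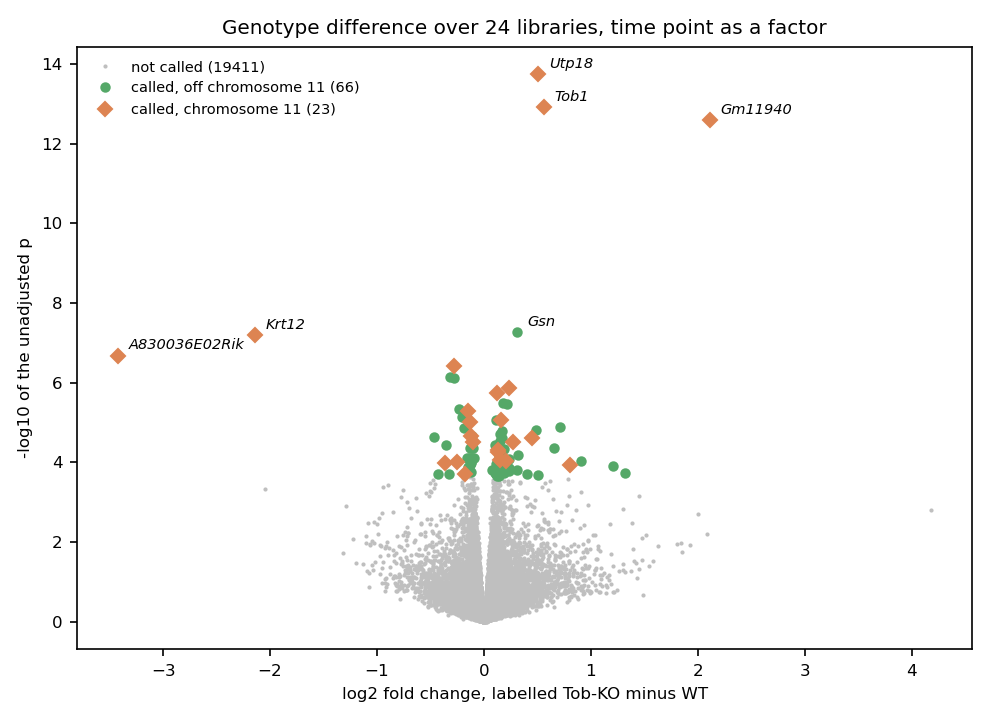
Each point is 1 of the 19500 genes tested; the x axis is the log2 fold change of the libraries labelled Tob-KO minus WT over 24 libraries and the y axis is -log10 of the unadjusted p. The 3 genes with the smallest p, Utp18, Tob1 and Gm11940, are on chromosome 11, and most of the 89 called genes lie within 0.3 of 0 on the x axis.

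All 89 called genes had the same sign at the 4 time points, which held for 20.3% of the genes tested. This agreement was used in the call and is a description. A test of whether the difference varied with time, the genotype by time interaction, called 0 genes in edgeR's quasi-likelihood test while 797 genes had an unadjusted p under 0.05 (4.09%). DESeq2's likelihood ratio test also called 0, and 733 genes had an unadjusted p under 0.05 in it. The 12 libraries labelled Tob-KO and the 12 WT libraries did not overlap for 6 genes (0.0308%), namely Tob1, Utp18, Gm11940 and Rapgefl1 above WT (0.0205%) and A830036E02Rik and C030039L03Rik below it (0.0103%). Only C030039L03Rik of these 6 is off chromosome 11.

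How small a difference was called followed the level of the gene. The median standard error of the log2 fold change was 0.256 for genes under 1 CPM, 0.0921 from 1 to 10 CPM, 0.0378 from 10 to 100 CPM and 0.0282 above 100 CPM. Accordingly 4 of 5051 genes (0.0792%) were called in the lowest class and 20 of 2385 (0.839%) in the highest, and the smallest called log2 fold change was 0.80 and 0.08. A difference of the usual size here could not be detected at the depth of genes under 1 CPM.

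The number called depended on single libraries, whereas the leading genes did not. Fits without 1 library each called 41 to 141 genes. It fell to 56 or 59 without naive WT replicate 1 or 3, to 54 without 15 min WT replicate 2, to 47 without 1 h WT replicate 2, and to 51 or 48 without 3 h WT replicate 1 or 3. It fell to 49 without naive Tob-KO replicate 2, to 46 without 15 min Tob-KO replicate 2 and to 41 without 3 h Tob-KO replicate 2, and rose to 141 without 3 h Tob-KO replicate 1. Of the 89 genes, 37 were called in each of the 24 fits, 15 of the 23 on chromosome 11 and 22 of the 66 off it.

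Chromosome 11, which carries Tob1, held 23 of the 89 called genes. This was 1.55% of its 1487 genes tested, against 0.366% (66 of 18013) for all other genes. Of these 23 genes, 13 were higher and 10 lower in libraries with the Tob-KO label, with a median absolute log2 fold change of 0.23. The 66 genes elsewhere were 43 higher and 23 lower, with a median absolute log2 fold change of 0.16. Among the other nuclear chromosomes, the share called went from 0% on Y, where 9 genes were tested, to 0.684% on chromosome 1. The share at an unadjusted p under 0.05 was 14.8% on chromosome 11 and 13.2% off it. By this measure the chromosome as a whole did not stand out, since chromosomes 14 (16.4%), 13 (15.4%) and X (14.9%) had higher shares. Neighbouring genes are not independent, and no test was made of these shares.

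**Figure D2:**
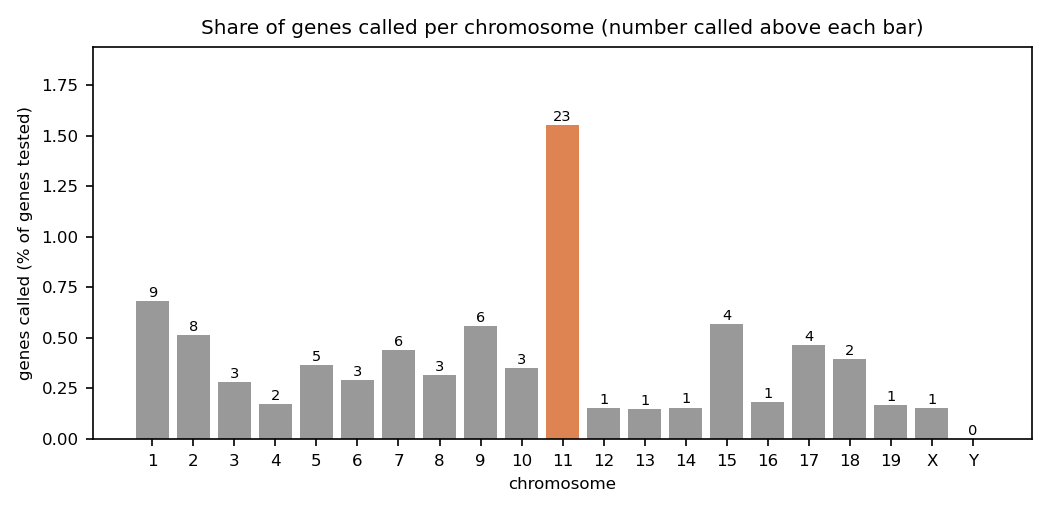
Bars give the genes called as a percentage of the genes tested on each nuclear chromosome, with the number called above each bar. Chromosome 11, at 1.55%, is the highest bar, and chromosome 1, at 0.684%, comes next, while the mitochondrial genome (2 of 22 genes, 9.09%) is not drawn.

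Within chromosome 11 the called genes lay close to Tob1. By the distance of the gene start from the start of Tob1, and without Tob1 itself, 3 of 31 genes (9.68%) were called within 1 Mb, 5 of 112 (4.46%) from 1 to 5 Mb and 8 of 205 (3.9%) from 5 to 10 Mb. None of 257 was called from 10 to 20 Mb, and 6 of 881 (0.681%) were called beyond. The share was not the same on both sides. On the side of higher coordinates, 14 of 265 genes (5.28%) within 10 Mb were called and 27.5% had an unadjusted p under 0.05. On the side of lower coordinates these were 2 of 83 (2.41%) and 12.0%, the latter near the share of all genes.

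The called genes around Tob1 did not move in 1 direction, as 8 were higher and 8 lower within 10 Mb, Tob1 left out. The genome was also divided into 5 Mb bins, of which 466 held at least 10 genes tested. No gene was called in 400 of them and 1 in 58. Of the 3 bins with 3 or more called genes, all were on chromosome 11, with 4 of 34 genes from 90 to 95 Mb, 10 of 116 from 95 to 100 Mb and 3 of 137 from 100 to 105 Mb. Calls off chromosome 11 were thus spread over the genome, with at most 2 in a bin.

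**Figure D3:**
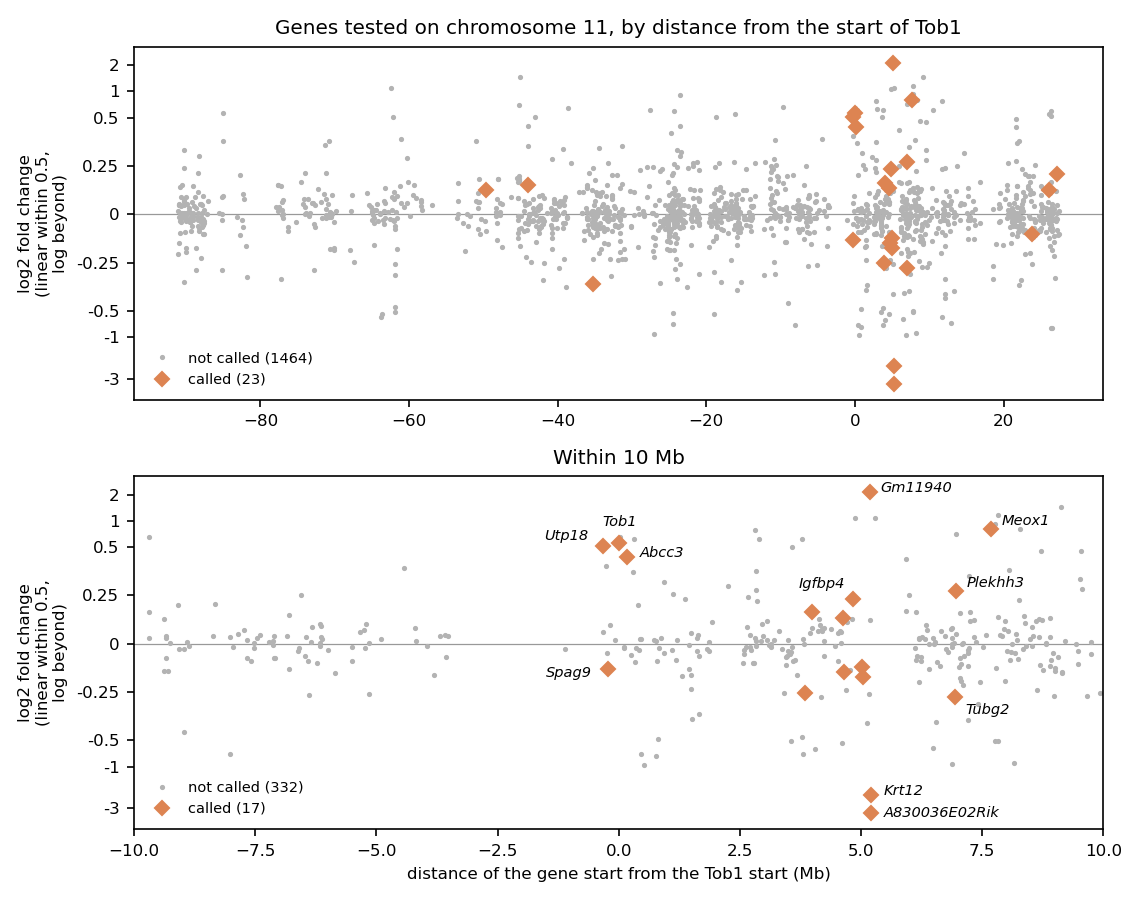
The log2 fold change of the genes tested on chromosome 11 (y axis, linear within 0.5 and logarithmic beyond) is plotted against the distance of the gene start from that of Tob1 in Mb, over the whole chromosome in the upper panel and within 10 Mb in the lower one. Called genes, Tob1 included, are diamonds; 14 of them lie within 10 Mb on the side of higher coordinates and 2 within 10 Mb on the other side.

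Closest to Tob1 were Utp18, Spag9 and Abcc3. Utp18 (93859243 to 93885766, reverse strand), which encodes a component of the small subunit processome that matures ribosomal RNA, had the smallest p of all genes. It was at 18.04 to 21.8 CPM (median 19.8, n = 12) in WT and at 25.1 to 30.7 CPM (median 28.1, n = 12) in the libraries labelled Tob-KO. The groups did not overlap, and the log2 fold change was 0.51 (SE 0.031, adjusted p = 3.57e-10, edgeR quasi-likelihood test). It was 0.43, 0.55, 0.51 and 0.55 at the 4 time points in order. Utp18 starts 0.33 Mb from the start of Tob1.

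Spag9 encodes a scaffold protein of JNK signalling and vesicle transport, known as JIP4. It was at 421 to 467 CPM (median 453) in WT and at 367 to 438 CPM (median 419) in the libraries labelled Tob-KO, with overlap at the upper end of the latter. Its level fell by 0.13 on the log2 scale (SE 0.024, adjusted p = 0.00997, edgeR quasi-likelihood test). Abcc3, which encodes an export transporter for organic anions and was named after its values were seen, rose by 0.45 (SE 0.086, adjusted p = 0.0169, same test) from a median of 2.33 to one of 3.36 CPM. Spag9 and Abcc3 start 0.22 Mb and 0.18 Mb from the start of Tob1, on opposite sides.

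The largest fold changes came from 3 transcripts near a cluster of keratin genes 5.2 Mb from Tob1. Gm11940 (99387340 to 99387897, forward strand), an antisense transcript that overlaps the keratin gene Krt10, was at 0.214 to 0.664 CPM (median 0.385) in WT and at 1.01 to 2.58 CPM (median 1.86) in the libraries labelled Tob-KO. All the latter were above all the former, and the log2 fold change was 2.12 (SE 0.15, adjusted p = 1.69e-09, edgeR quasi-likelihood test). The raw counts behind these levels were 7 to 20 in WT and 31 to 85 in the libraries labelled Tob-KO, so single values are imprecise.

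Krt12, a keratin gene known from the corneal epithelium, and A830036E02Rik overlap each other on opposite strands. Krt12 was at 0.966 to 3.29 CPM (median 2.45) in WT and at 0.0982 to 1.86 CPM (median 0.391) in the libraries labelled Tob-KO, with overlap, and fell by 2.14 on the log2 scale (SE 0.28, adjusted p = 0.000251, edgeR quasi-likelihood test). A830036E02Rik was at 13.1 to 29.2 CPM (median 17.3) in WT and at 0.131 to 7.89 CPM (median 0.489) in the libraries labelled Tob-KO, without overlap, and fell by 3.42 (SE 0.48, adjusted p = 0.00068, same test). Since the strand setting of the counting is not stated, reads of these 2 genes cannot be told apart with certainty.

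The measured difference in A830036E02Rik was of unequal size at the 4 time points, with an unadjusted interaction p of 0.000122 (edgeR quasi-likelihood test). In the libraries labelled Tob-KO it was at 0.131, 0.157 and 0.294 CPM in naive mice and at 7.89, 7.77 and 5.77 CPM at 15 min. At 1 h it was at 5.44, 0.209 and 0.266 CPM, so that 1 library stood with those of 15 min and the others with those of naive mice. The log2 fold change was -6.81 in naive mice and -1.48 at 15 min, -2.82 at 1 h and -5.01 at 3 h. The interaction with time was not called (adjusted p = 0.953, edgeR quasi-likelihood test), but without the first 1 h library labelled Tob-KO its adjusted p was 0.000218. The library left out there is the one at 5.44 CPM that stood with those of 15 min. A change over time and a difference between mice cannot be told apart for this gene.

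**Figure D4:**
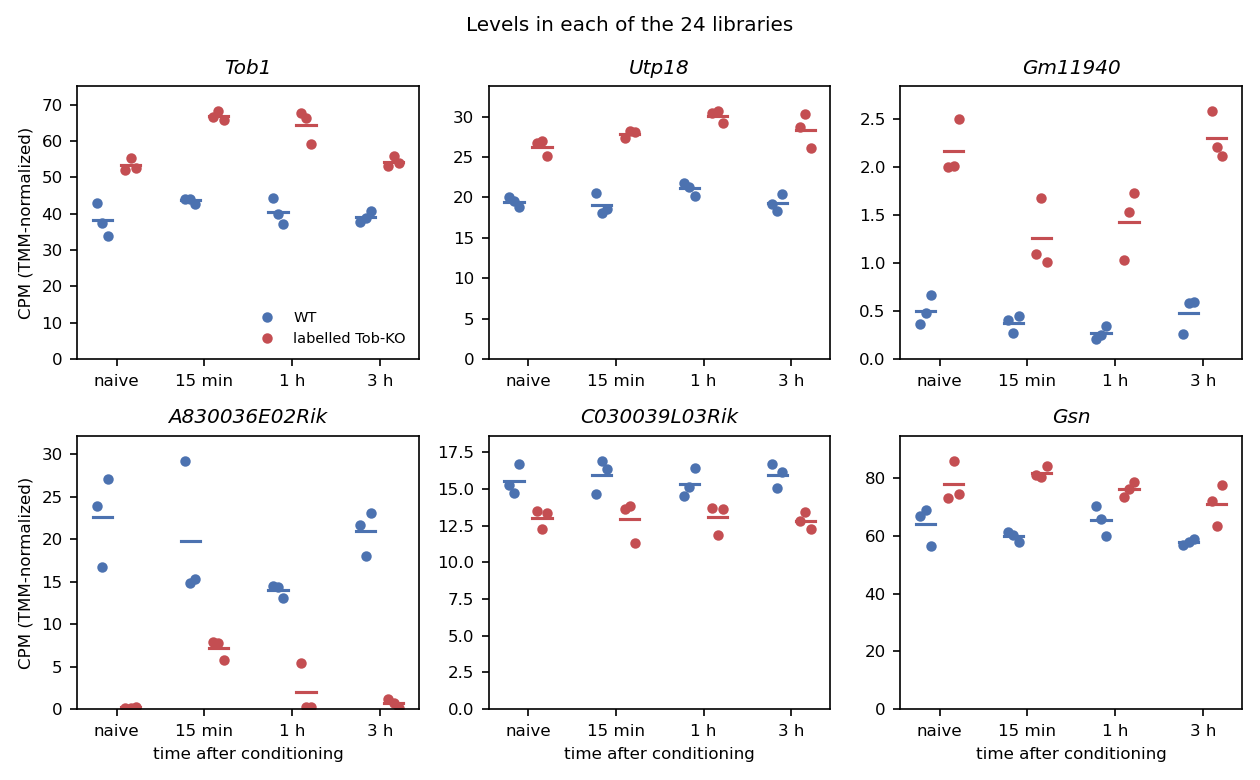
Each point is the level of a gene in 1 library, in TMM-normalized CPM on an axis from 0, for WT and for libraries labelled Tob-KO in naive mice and at 15 min, at 1 h or at 3 h after conditioning; short lines are means of 3 libraries. The genotypes do not overlap over the 24 libraries for Tob1, Utp18, Gm11940, A830036E02Rik and C030039L03Rik, and do for Gsn, which had the smallest p off chromosome 11.

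Other named genes on this side of Tob1 had smaller differences. Igfbp4, which encodes a secreted protein that binds insulin-like growth factors, was at 70.6 to 83.8 CPM (median 74.2) in WT and at 79.3 to 100 CPM (median 88.5) in the libraries labelled Tob-KO, and rose by 0.23 (SE 0.036, adjusted p = 0.00261, edgeR quasi-likelihood test). Med1, a subunit of the Mediator complex that links transcription factors to RNA polymerase, rose by 0.16 (SE 0.029, adjusted p = 0.00964). Rapgefl1, which resembles exchange factors of the small GTPase Rap and was named because its groups did not overlap, was at 194 to 228 CPM in WT and at 228 to 260 CPM in the libraries labelled Tob-KO. Its groups were apart by less than the rounding of these values.

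Lower in the libraries labelled Tob-KO on this side were Tubg2, Wipf2 and Smarce1. Tubg2, the gamma-tubulin of the brain, was at 28.7 to 33.0 CPM (median 31.5) in WT and at 22.5 to 29.3 CPM (median 25.5) in the libraries labelled Tob-KO, and fell by 0.28 (SE 0.04, adjusted p = 0.00105, edgeR quasi-likelihood test). Wipf2, whose product binds the actin regulator N-WASP, fell by 0.15 (adjusted p = 0.00665), and Smarce1, a subunit of the SWI/SNF chromatin remodelling complexes, fell by 0.12 (adjusted p = 0.0163), both in the same test. In each of these 3 genes the groups overlapped. The remaining gene of the 12 with the smallest p on the chromosome, Rnf145, encodes a ubiquitin ligase of the endoplasmic reticulum membrane. It lies 49.7 Mb from Tob1 and rose by 0.12 (adjusted p = 0.0032, same test), from a median of 92.9 to one of 101 CPM.

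Off chromosome 11, 66 genes were called, and 1 of them, C030039L03Rik, had groups that did not overlap. The highest-ranked gene was Gsn on chromosome 2, which encodes gelsolin, a protein that severs and caps actin filaments and is abundant in oligodendrocytes. Gsn was at 56.6 to 70.3 CPM (median 60.2) in WT and at 63.4 to 86.1 CPM (median 76.9) in the libraries labelled Tob-KO. The lower end of the latter overlapped WT. It rose by 0.31 on the log2 scale (SE 0.04, adjusted p = 0.000251, edgeR quasi-likelihood test), with 0.28, 0.45, 0.22 and 0.30 at the 4 time points in order.

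Acvr1c, Cdk4 and E2f3 were among the 12 higher genes with the smallest p off the chromosome. Acvr1c encodes the type I receptor ALK7 for activins, Nodal and related ligands. It was at 24.9 to 32.3 CPM (median 28.7) in WT and at 30.3 to 37.7 CPM (median 32.9) in the libraries labelled Tob-KO, and rose by 0.21 (SE 0.035, adjusted p = 0.00525, edgeR quasi-likelihood test). Cdk4, the cyclin D-dependent kinase that opens the way into S phase, was at 28.0 to 34.2 CPM (median 30.5) and at 31.8 to 36.1 CPM (median 34.1), and rose by 0.15 (SE 0.029, adjusted p = 0.0158). E2f3, a transcription factor that acts after the cyclin D kinases, was at 35.0 to 41.9 CPM (median 37.4) and at 37.1 to 44.9 CPM (median 42.5), and rose by 0.15 (SE 0.03, adjusted p = 0.019). The 2 genotypes overlapped in all 3 genes. For Cdk4 and E2f3 the difference was smallest at 1 h, with 0.05 and 0.06.

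Nhlh1, a basic helix-loop-helix factor of newborn neurons, was at 0.625 to 1.41 CPM (median 0.893) in WT and at 1.00 to 1.96 CPM (median 1.53) in the libraries labelled Tob-KO, and rose by 0.71 (SE 0.13, adjusted p = 0.0129, edgeR quasi-likelihood test). Med27, another Mediator subunit, rose by 0.17 (adjusted p = 0.0137), and Ncbp2, a subunit of the nuclear cap-binding complex, by 0.11 (adjusted p = 0.00964). Mex3b, an RNA-binding protein, rose by 0.17 (adjusted p = 0.0169) and Brd1, a bromodomain protein of histone acetyltransferase complexes, by 0.10 (adjusted p = 0.0215). Lix1l rose by 0.18 (adjusted p = 0.00523) and Jsrp1, a gene known from the junctional sarcoplasmic reticulum of muscle, by 0.48 (adjusted p = 0.0137), from a median of 1.53 to one of 2.04 CPM.

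Hectd2 encodes a ubiquitin ligase of the HECT type, and its level varied within each genotype. It was at 16.1 to 46.8 CPM (median 30.6) in WT and at 37.1 to 60.9 CPM (median 49.4) in the libraries labelled Tob-KO, and rose by 0.65 (SE 0.13, adjusted p = 0.023, edgeR quasi-likelihood test). The log2 fold change was 1.32 in naive mice and 0.40, 0.40 and 0.51 at the later times in order. The interaction with time had an unadjusted p of 0.0204 and was not called. Hectd2 shares its locus with an antisense gene, Hectd2os.

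Among the 23 genes lower off chromosome 11, the smallest p-values were those of 2900052N01Rik and C030039L03Rik. 2900052N01Rik, on chromosome 9, was at 38.4 to 53.4 CPM (median 44.97) in WT and at 29.0 to 42.4 CPM (median 36.4) in the libraries labelled Tob-KO, and fell by 0.32 (SE 0.048, adjusted p = 0.00167, edgeR quasi-likelihood test). C030039L03Rik is listed in RefSeq's annotation of GRCm38.p6 on chromosome 7 under the name of a zinc finger gene. It was at 14.5 to 16.9 CPM (median 15.7) in WT and at 11.3 to 13.9 CPM (median 13.4) in the libraries labelled Tob-KO, without overlap, and fell by 0.28 (SE 0.042, adjusted p = 0.00167). Its log2 fold change was -0.26, -0.31, -0.23 and -0.31 at the 4 time points. Zinc finger genes of this kind have near-identical copies, so its count is uncertain.

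Spry4 was the called gene of the ERK pathway, in which it acts as a feedback inhibitor of receptor tyrosine kinase signalling. It was at 16.3 to 24.6 CPM (median 19.6) in WT and at 13.6 to 22.9 CPM (median 16.6) in the libraries labelled Tob-KO, with wide overlap, and fell by 0.23 (SE 0.039, adjusted p = 0.00656, edgeR quasi-likelihood test) once time point was in the model. With no time point in the model its adjusted p was 0.316. Hjurp, the chaperone of the centromeric histone CENP-A, was at 54.1 to 67.4 CPM (median 61.6) and at 47.9 to 64.2 CPM (median 53.7), and fell by 0.19 (SE 0.035, adjusted p = 0.0129).

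The other genes of the 12 with the smallest p among those lower were as follows. Slc36a4, an amino acid transporter, fell by 0.11 (adjusted p = 0.0163, edgeR quasi-likelihood test), Atp6v1g2, a neuronal subunit of the proton pump of vesicles, fell by 0.10 (adjusted p = 0.023), and Kifc2, a kinesin motor, fell by 0.13 (adjusted p = 0.023). Atp6v1g2 and Kifc2 are abundant, at medians of 374 and 423 CPM in WT and of 347 and 389 CPM in those labelled Tob-KO. Tm9sf4 fell by 0.10 (adjusted p = 0.032) and 9930104L06Rik by 0.16 (adjusted p = 0.032). Without 1 of the 24 libraries Tm9sf4 was called in 17 fits and 9930104L06Rik in 19. The antisense transcript Gm42756 fell by 0.46 (adjusted p = 0.0169) and Gm37885 by 0.36 (adjusted p = 0.0213). Gm37885 differed by only -0.05 in naive mice, and by -0.58, -0.38 and -0.42 at the later times.

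**Figure D5:**
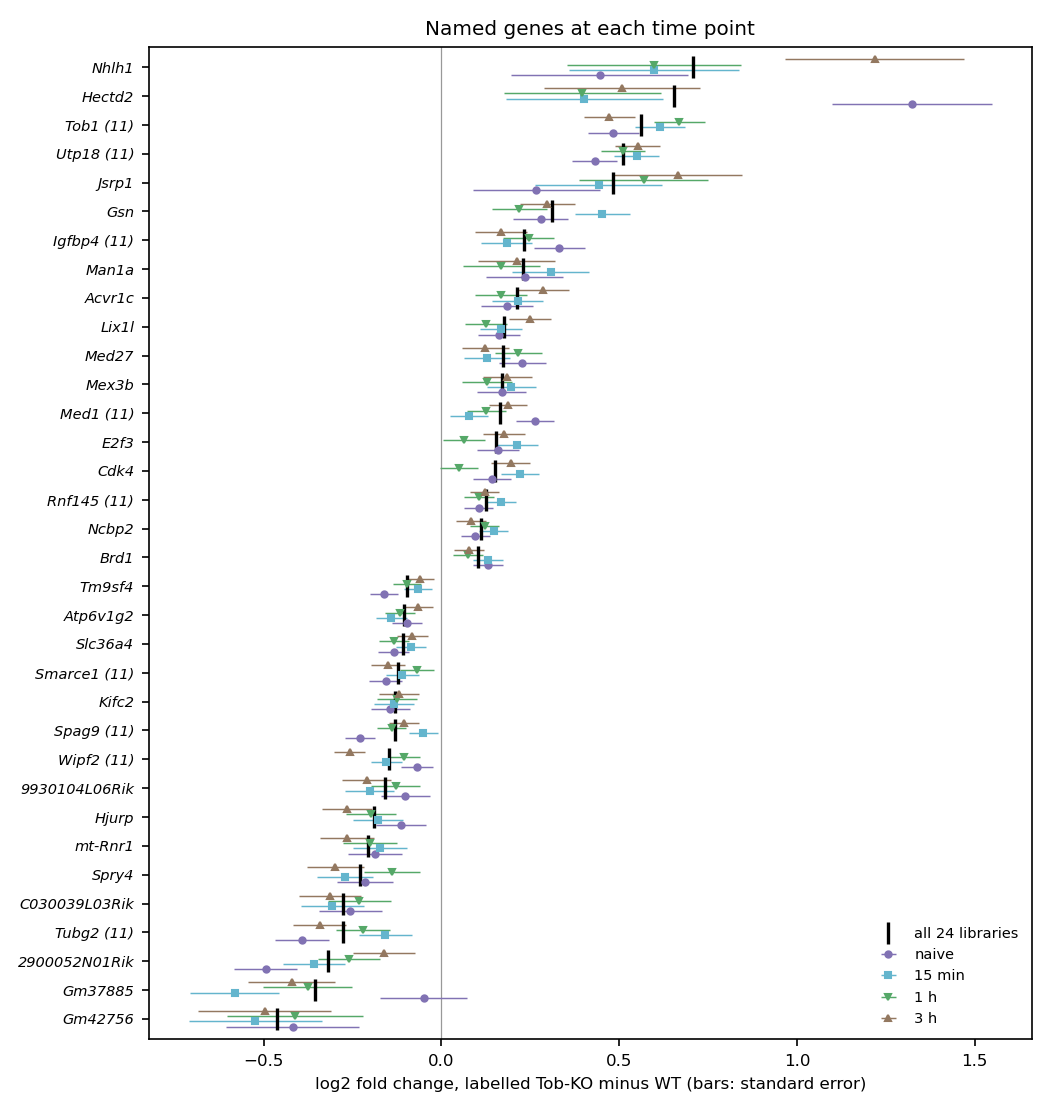
For the named genes that were called, points give the log2 fold change of libraries labelled Tob-KO minus WT at each time point with its standard error, and black marks the value over 24 libraries; genes on chromosome 11 carry (11), and Gm11940, Krt12 and A830036E02Rik are left out because of their size. All points of a gene lie on the same side of 0, and Hectd2 in naive mice (1.32), Nhlh1 at 3 h (1.22) and Gm37885 in naive mice (-0.05) lie farthest from the value over all libraries.

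Both mitochondrial ribosomal RNAs were called lower in the libraries labelled Tob-KO. The libraries were made from poly(A) RNA, and the part of this selection in the counts of ribosomal RNA was not tested. mt-Rnr1 was at 1758 to 2377 CPM (median 2001) in WT and at 1582 to 1873 CPM (median 1837) in the libraries labelled Tob-KO, and fell by 0.21 (SE 0.036, adjusted p = 0.00899, edgeR quasi-likelihood test). mt-Rnr2 fell by 0.15 (SE 0.0325, adjusted p = 0.0419, same test) and was called in 7 of the 24 fits without 1 library. Of the 12 protein-coding genes of the mitochondrial genome tested, 0 were called and 11 had a lower sign, with a median log2 fold change of -0.03. By time this median went from -0.16 in naive mice to 0.05 at 3 h. All mitochondrial genes together took 3.39% to 4.31% of the counts in WT (median 3.62%) and 3.14% to 3.97% in the libraries labelled Tob-KO (median 3.49%), and the part of this share in the result was not tested. Of 75 nuclear-encoded genes of the respiratory chain, 0 were called, 69 had a lower sign against 9923 of all 19500 genes, and 11 had an unadjusted p under 0.05, all lower. Their median was -0.04, and by time it was -0.05, -0.06 and -0.07 up to 1 h and 0.00 at 3 h.

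To follow the calls in mice that had not entered them, genes were called on 3 time points and followed in the 6 libraries of the remaining one. With naive mice held out, 20 genes were called and 20 of them had the same direction in the naive mice. These numbers were 25 and 22 for 15 min, 22 and 20 for 1 h, and 12 and 12 for 3 h. Over all genes tested, the direction was the same for 60.0%, 61.1%, 55.8% and 54.8%. In the held-out mice the 3 libraries labelled Tob-KO and the 3 WT libraries did not overlap, in the called direction, for 13, 14, 12 and 7 of these genes, against 7.85%, 9.47%, 7.1% and 7.49% of all genes.

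The genes off chromosome 11 alone kept the direction in 11 of 11, 11 of 13, 9 of 11 and 5 of 5. Their median difference in the called direction was 0.19, 0.17, 0.13 and 0.16 on the log2 scale in the held-out mice, against median absolute log2 fold changes of 0.26, 0.21, 0.25 and 0.32 in the mice used to call them. Called in all 4 such fits were 8 genes, 6 of them on chromosome 11, namely Tob1, Utp18, Gm11940, Krt12, A830036E02Rik and Igfbp4, together with Gsn and 2900052N01Rik. The 4 fits share mice with each other, and the sets of genes they called are not independent.

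Lists of genes for pathways and cell types were described by their counts, to be read against the 0.456% of all genes that were called and the 13.3% with an unadjusted p under 0.05. The genes of a list are measured in the same libraries and can move together, so these counts are descriptions and not tests. Of 29 lists, 16 of them lists of cell type markers, 4 had a called member, with 1 in each. In the Tob/Btg family, Tob1 was the called gene of the 5 tested. Tob2, its closest relative, was at a median of 34.9 CPM in WT against 34.8 CPM in the libraries labelled Tob-KO, and Btg1 and Btg2 differed by 0.11 and -0.15 (adjusted p = 0.232 and 0.334, edgeR quasi-likelihood test). Of 51 genes of deadenylation and decay, which include the CCR4-NOT subunits, 0 were called and 6 had an unadjusted p under 0.05, a share near that of all genes, and the median log2 fold change was 0.01 against 0.00 over all genes. The median standard error in this list was 0.0352, and over all genes from 10 to 100 CPM the smallest log2 fold change called was 0.0963.

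Of 37 genes of the ERK pathway tested, Spry4 was called and the median was 0.01. Mapk3, an ERK kinase, differed by -0.03 (SE 0.035, adjusted p = 0.781, edgeR quasi-likelihood test). Dusp1, which encodes the ERK phosphatase MKP-1, was at 13.7 to 61.3 CPM in WT and at 12.7 to 45.3 CPM in the libraries labelled Tob-KO, a log2 difference of -0.25 (SE 0.12, adjusted p = 0.383). The sign of the Dusp1 difference was not the same at all times. It was -0.59 in naive mice, -0.39 at 15 min, 0.22 at 1 h and -0.24 at 3 h. Its interaction with time was not called (adjusted p = 0.953, edgeR quasi-likelihood test).

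Of 24 genes of BMP and SMAD signalling, 0 were called and 18 had a higher sign, with 5 at an unadjusted p under 0.05, all higher. Of 27 cell cycle genes, Cdk4 was called, 18 had a higher sign, and 7 had an unadjusted p under 0.05, all higher, with a median of 0.04. Over all genes, 1325 of the 2595 genes with an unadjusted p under 0.05 were higher. For 37 glutamate receptor genes and 23 genes of the GABA synapse, 0 were called, 7 and 4 had an unadjusted p under 0.05 against 2595 of all 19500 genes, and the medians were 0.03 and 0.02. Of the 7 glutamate receptor genes, 4 were higher and 3 lower, and all 4 of the GABA synapse were higher. By time the medians were 0.02, -0.03, 0.00 and 0.04 for glutamate receptors and -0.03, 0.08, -0.03 and 0.06 for the GABA synapse.

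Immediate early genes, which neurons switch on within minutes of activity, leaned lower in the libraries labelled Tob-KO without passing the test. Of 30 tested, 0 were called, 26 had a lower sign and 18 were lower at an unadjusted p under 0.05, with a median log2 fold change of -0.17. Over all 19500 genes, 9923 had a lower sign and 1270 were lower at an unadjusted p under 0.05. By time the median was -0.25 in naive mice, -0.22 at 15 min, -0.05 at 1 h and -0.22 at 3 h. With a score of choroid plexus markers as a covariate, the median over all time points was -0.145. The members with the largest differences, named after their values were seen, were Egr2 and Fos. Egr2 was at 1.13 to 15.4 CPM (median 4.34) in WT and at 0.589 to 8.95 CPM (median 2.97) in the libraries labelled Tob-KO, a log2 difference of -0.72 (SE 0.19, adjusted p = 0.0884, edgeR quasi-likelihood test). For Fos it was -0.53 (SE 0.16, adjusted p = 0.137), from -0.16 at 1 h to -1.11 in naive mice. The 2 genotypes overlapped widely in both, as these genes vary with time after conditioning.

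Apart from Tob1, the genes listed here because the study measured or named them were not called over all time points. Lcn2, which encodes the secreted iron-carrier protein lipocalin-2, was at 0.0633 to 4.74 CPM (median 0.427) in WT and at 0.028 to 0.442 CPM (median 0.108) in the libraries labelled Tob-KO. Its log2 fold change was -2.05 (SE 0.50, adjusted p = 0.0619, edgeR quasi-likelihood test), with -3.90 at 15 min and -1.34 to -1.07 at the other times. The WT libraries of 15 min held 0.32, 0.652 and 4.74 CPM of Lcn2 and the Tob-KO ones 0.298, 0.028 and 0.0724 CPM, so 1 WT library stood far above the rest. Over all alternatives the log2 fold change of Lcn2 ran from -2.45 to -1.21, the latter without the 15 min libraries, and 1 of the 24 fits without 1 library called it (adjusted p = 0.0449, same test). The receptors Mc3r, Crhr2 and Avpr1a, for melanocortins, urocortins and vasopressin, differed by 1.30, 0.48 and 0.43 (adjusted p = 0.105, 0.335 and 0.568), and for each the difference at 15 min was the largest, at 3.18, 1.45 and 1.55. Avpr1a differed by -0.25 in naive mice and by -0.18 at 1 h. At 15 min the median difference of 18 choroid plexus markers was also at its largest, 3.77, and its part in the receptors' values was not tested. Esr1 differed by 0.13 (adjusted p = 0.743). For Lcn2 and Mc3r, DESeq2 gave adjusted p-values of 0.0101 and 0.0177.

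Of the 16 lists of cell type markers, 1 had a called member, but in several the members shared a sign. In bulk tissue, fewer cells of a type and less RNA per cell cannot be told apart. All 18 markers of the choroid plexus, which makes the cerebrospinal fluid, had a higher sign, with a median log2 fold change of 1.07, and 0 were called. Their summed level ran from 66.0 to 3110 CPM (median 440.0) in WT and from 101 to 5260 CPM (median 2340) in the libraries labelled Tob-KO. By time, their median was 1.15, 3.77 and 1.04 up to 1 h and -1.02 at 3 h, so it was not constant. With a score of these markers as a covariate, all 89 called genes kept their sign, the median ratio of the new to the old log2 fold change was 0.999 and the lowest was 0.688, for the epithelial junction gene Cldn3. At the same FDR, 34 of the 89 were no longer called, 4 of them on chromosome 11.

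All 7 genes of blood and neutrophils tested had a lower sign, with a median of -0.51 and 5 at an unadjusted p under 0.05. Their summed level was 42.2 to 134 CPM (median 61.3) in WT and 36.0 to 62.7 CPM (median 45.5) in the libraries labelled Tob-KO. Markers of dentate granule cells had a higher sign in 8 of 8 (median 0.13, 4 at an unadjusted p under 0.05), oligodendrocyte markers in 10 of 10 (median 0.07, 2 at an unadjusted p under 0.05) and astrocyte markers a lower sign in 9 of 10 (median -0.06, 4 at an unadjusted p under 0.05). The oligodendrocyte markers were at -0.19 at 1 h and at 0.11 to 0.23 at the other times. A higher sign was also held by 7 of 7 markers of CA2 and CA3 (median 0.12) and 7 of 7 of ependyma (median 0.26). It was held by 9 of 10 of striatum and septum (median 0.12) and 9 of 10 of microglia (median 0.02). Of the CA1 markers 3 were higher and 4 lower (median -0.07), and of the interneuron markers 4 were higher and 8 lower (median -0.06). The called marker of any cell type was Man1a of the CA1 list, a mannosidase of the Golgi, which rose by 0.23 (SE 0.052, adjusted p = 0.0436, edgeR quasi-likelihood test) and was called in 7 of the 24 fits without 1 library. The part of these cell types in the called differences was not tested beyond the choroid plexus score.

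Nnt, a gene known to differ between C57BL/6 substrains, was not called. This gene, which carries a deletion in C57BL/6J, was at 17.2 to 22.3 CPM in WT and at 18.03 to 23.0 CPM in the libraries labelled Tob-KO (log2 fold change -0.04, adjusted p = 0.711, edgeR quasi-likelihood test). Mmrn1 did not reach the filter. Values per gene do not show the alleles around Tob1.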

How the data were processed

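Hippocampal poly(A) RNA was sequenced by the authors from directional libraries with paired-end reads. The reads were aligned by the authors with STAR 2.6.1d against GRCm38 in nf-core/rnaseq and assigned to genes with HTSeq 0.9.0. The authors deposited raw whole-number counts per gene and library, without normalization. The annotation release and strand setting are not given in the sources used here. Without molecular identifiers, PCR copies of a molecule are counted separately. Genes were matched by symbol to GENCODE vM21 (45192 of 47593 matched exactly 1 gene), and 667 more were placed through RefSeq GRCm38.p6. In the table, 27 rows are named by a date and are not named here.

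Genotype, time point and replicate number came from the sample labels. Genes with at least 0.2 CPM in 2 of 24 libraries were tested with edgeR 4.0.16 (R 4.3.3) after TMM normalization, in a quasi-likelihood fit of time point plus genotype, at a Benjamini-Hochberg FDR of 0.05. Alternatives were DESeq2 1.42.0, other scalings, filters and models, and the omission of each library and time point. The procedure was run on simulated counts drawn independently for each gene. Such counts hold no factor shared by the genes of a library, so they do not show how the FDR behaves with one. Replicates within a group differed by 3.68 to 22.8 chi-square units per degree of freedom, so none was counted as a repeat. Summaries used Python 3.11.15 with pandas 2.3.3.

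The named genes are Tob1, the 12 called genes with the smallest p on chromosome 11, the 12 higher and 12 lower ones off it, called list members, the genes the study measured by name, and Nnt and Mmrn1, except for genes not reported here. Others are marked as chosen after their values were seen. The members, lists and this rule were chosen with earlier results of these data known.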

Additional observations from a re-analysis of the deposited data

How the results depend on the processing

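The counts of called genes depended on the processing, whereas no named gene that was called reversed its direction in any fit. Of those not called, Mapk3 ran from -0.045 to 0.010 and Esr1 from -0.027 to 0.232 on the log2 scale over the fits. Against 89 genes (23 on chromosome 11 and 66 off it), a filter of 1 CPM in 12 libraries gave 161 (128 off the chromosome), DESeq2 293 (46 and 247), a model with no time point 52 (32 off it), and the choroid plexus score as a covariate 60 (39 off it). Without naive mice 20 were called (9 and 11), without 15 min 25 (12 and 13), without 1 h 22 (11 and 11) and without 3 h 12 (7 and 5). With fewer mice the test has less power, and no other cause was tested. Leaving out 1 library gave 41 to 141 genes, 16 to 29 of them on chromosome 11 and 25 to 112 off it, and off it the count also moved over 1.5 times without 1 h WT replicate 3 (39) and 3 h Tob-KO replicate 3 (43). Leaving out 1 library gave 1143 to 2025 genes for time and 0 to 1 for the interaction, and the interaction also gave 1 gene, A830036E02Rik, with no filter. Of the 37 named genes that were called, 34 stayed called in all 24 fits without 1 library and 8 in all 14 other fits. Most of them were named for their small p in the same libraries, which favours this. Of all 89 called genes, 37 stayed called in all 24 fits.

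The replicate numbers were not used as pairs. Of 12 same-numbered pairs, 3 had correlated deviations over 0.1 (range -0.365 to 0.139). This correlation runs over all genes tested and would not show a shared effect on few of them. With the number within each time point as a block, 84 genes were called, 62 of them among the 89. With 3 numbers over all time points as a block, 89 were called, 79 of them shared. RLE scaling gave 89, library size alone 121, no filter 77 and an average over the 8 groups 82. Depth limits genes under 1 CPM most.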

Other observations

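Outside the named genes, several called genes off chromosome 11 had low levels and large differences, and these were chosen after their values were seen. Cldn3, a claudin of epithelial tight junctions, was at 0.145 to 0.802 CPM (median 0.355) in WT and at 0.325 to 1.76 CPM (median 1.06) in the libraries labelled Tob-KO, and rose by 1.32 on the log2 scale (adjusted p = 0.0452, edgeR quasi-likelihood test). Il1rl1, the receptor for interleukin-33, rose (adjusted p = 0.035, same test) from a median of 0.134 to one of 0.444 CPM, and Onecut1, a homeodomain factor, rose by 0.91 (adjusted p = 0.0333). At these levels each library held few counts of these genes. With the choroid plexus score as a covariate, Cldn3 and Il1rl1 stayed called and Onecut1 did not (adjusted p = 0.0649). Of the 24 fits without 1 library, 7 called Cldn3, 9 called Il1rl1 and 12 called Onecut1.

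At the other end of the scale, abundant genes were called for very small differences. Tmem132b, a membrane protein gene on chromosome 5, was at 203 to 224 CPM (median 211) in WT and at 213 to 237 CPM (median 224) in the libraries labelled Tob-KO. It had the smallest log2 fold change called, 0.08 (standard error 0.018, adjusted p = 0.0421, edgeR quasi-likelihood test), and was called in 7 of the 24 fits without 1 library. Crmp1, a collapsin response mediator protein of growing axons, rose by 0.13 (adjusted p = 0.0253, same test) and Actg1, cytoplasmic gamma-actin, by 0.13 (adjusted p = 0.0247).

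By gene type, 82 of 15546 protein-coding genes (0.527%), 4 of 715 antisense genes (0.559%) and 1 of 654 long intergenic RNA genes (0.153%) were called, as were both mitochondrial ribosomal RNAs. Of the 87 called genes in GENCODE, 47 (54.0%) overlap a gene on the opposite strand, as do 43.7% of the genes tested, and reads of such partners may not be separated in the counts.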
